A study of Homo sapiens with 12 samples.

Results

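The citrate cycle (Krebs cycle) and pyruvate oxidation enzymes were followed as a fixed list of 30 genes, found by their Ensembl identifiers among the 57500 genes counted in each library. The list is defined by function, and its rule used no measured values. It held 12 genes of the cycle itself, 4 genes of the pyruvate dehydrogenase core, 3 genes of the phosphatase that reactivates that complex, 6 genes of NADP-linked and malate side reactions, and 5 genes that join the cycle to glutamate and the transaminases. RNA sequencing covered 12 libraries of HepG2, a human hepatocellular carcinoma line, with 4 replicates in each of 3 groups. WT was the parental line under control conditions, and shTST carried a short hairpin RNA against TST delivered by lentivirus. The overTST line carried a codon-optimized, Myc-tagged TST coding sequence under the CMV promoter. Transduced cells were selected with blasticidin. All 3 groups were kept in standard medium with 400 µM glycine for 24 h, and no source used here states that WT carried an empty vector. The vector and the change in TST therefore cannot be told apart.

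Pyruvate enters mitochondria and is turned into acetyl-CoA by the pyruvate dehydrogenase complex, which is switched off by phosphorylation and on again by its phosphatase. The cycle then oxidizes acetyl-CoA stepwise and hands electrons to the respiratory chain, while its intermediates are drawn off for glucose, fatty acids and amino acids, all major products of hepatocytes. TST encodes thiosulfate sulfurtransferase (rhodanese), a mitochondrial enzyme that passes sulfur to cyanide, and cyanide in turn inhibits the respiratory chain.

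Library totals were 28866175 to 45120508 assigned reads in WT, 27527854 to 33865386 in shTST and 22911380 to 27414142 in overTST, so overTST was the most shallow group. Mitochondrially encoded genes took 6.91, 9.42, 6.95 and 11.98% of the reads in the WT libraries, 6.84 to 8.65% in shTST and 10.84 to 11.73% in overTST. In this share the WT libraries, on which both comparisons with WT rest, differed most from each other. All 11 hepatocyte markers examined stood at 10 CPM (read counts scaled to a fixed library total) or more in every library, and their summed level was 24771 to 27964 CPM in WT, 26230.2 to 30744 in shTST and 23306 to 27981 in overTST. Of 10 markers of other cell types, 6 stood under 1 CPM in every library (COL1A2, COL3A1, VWF, CDH5, PTPRC and HBB). The exceptions were PDGFRB, over 10 CPM in every library, and COL1A1, PECAM1 and CD68 at low levels. The 4 fibroblast and stellate markers summed to 21.6 to 25.2 CPM in WT, 17.0 to 19.4 in shTST and 15.9 to 17.9 in overTST, nearly all of it PDGFRB. The 3 endothelial markers summed to 2.51 to 3.29, 1.81 to 2.16 and 3.396 to 3.91 CPM in the same order, and the 3 blood cell markers to 1.14 to 2.21, 1.39 to 1.83 and 1.14 to 2.5. The part of these in the results below was not tested. TST, the targeted gene, measured 47.2, 47.5, 52.8 and 48.5 CPM in WT, 33.0, 33.6, 36.6 and 33.5 in shTST, and 51.8, 56.0, 61.6 and 62.1 in overTST. Its log2 change against WT was -0.52 in shTST (edgeR adjusted p = 3.2e-06, two-sided exact permutation p = 0.0286, the smallest that 4 against 4 can give). In overTST it was 0.24 (edgeR adjusted p = 0.00384, exact permutation p = 0.0571), and 1 overTST library lay below the highest WT library. That call was lost with the correction for gene length described below, at 0.10 (edgeR adjusted p = 0.201). A codon-optimized transgene need not be counted under the human gene, so the overTST value does not measure the transgene.

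Promoter windows are shown for 4 genes, as examples of the patterns of change met below: GOT1, lower with shTST; IDH3A, lower in both engineered lines; PDHA1, higher with overTST; and PDPR, lower with overTST. Each is 300 bases from RefSeq on GRCh38.p14, from 250 bases before to 50 after a RefSeq start, written 5′ to 3′ on the strand of the gene. Capitals mark the only motif match found in them. The GOT1 window is chr10:99430575-99430874 on the minus strand, IDH3A chr15:78149112-78149411 on the plus strand, PDHA1 chrX:19343677-19343976 on the plus strand and PDPR chr16:70113376-70113675 on the plus strand, the first of 2 PDPR windows listed.
GOT1: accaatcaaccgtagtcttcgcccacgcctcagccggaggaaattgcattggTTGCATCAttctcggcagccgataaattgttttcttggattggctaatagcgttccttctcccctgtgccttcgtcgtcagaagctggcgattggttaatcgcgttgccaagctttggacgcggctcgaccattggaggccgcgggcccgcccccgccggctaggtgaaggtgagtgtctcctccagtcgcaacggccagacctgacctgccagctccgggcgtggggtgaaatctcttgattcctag
IDH3A: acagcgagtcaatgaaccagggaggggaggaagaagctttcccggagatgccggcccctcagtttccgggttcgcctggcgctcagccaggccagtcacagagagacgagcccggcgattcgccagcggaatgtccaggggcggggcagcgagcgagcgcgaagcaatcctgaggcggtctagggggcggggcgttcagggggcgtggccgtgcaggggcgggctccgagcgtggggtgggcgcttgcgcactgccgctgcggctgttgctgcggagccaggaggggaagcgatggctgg
PDHA1: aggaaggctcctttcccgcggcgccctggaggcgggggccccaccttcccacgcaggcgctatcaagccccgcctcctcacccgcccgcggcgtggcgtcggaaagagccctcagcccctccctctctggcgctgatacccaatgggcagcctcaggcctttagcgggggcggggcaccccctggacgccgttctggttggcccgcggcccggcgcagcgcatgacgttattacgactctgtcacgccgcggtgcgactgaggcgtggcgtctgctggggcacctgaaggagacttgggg
PDPR: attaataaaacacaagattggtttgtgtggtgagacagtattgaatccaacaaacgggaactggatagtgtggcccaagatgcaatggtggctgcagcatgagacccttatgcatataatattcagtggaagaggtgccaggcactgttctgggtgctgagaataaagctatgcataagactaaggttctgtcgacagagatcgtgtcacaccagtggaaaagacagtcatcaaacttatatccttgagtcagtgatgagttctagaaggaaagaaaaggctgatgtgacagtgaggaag
The capital letters in GOT1 are TTGCATCA, which is the CARE element (TGATGNAA, bound by ATF4 with C/EBP partners) read on the reverse strand, with its first base at -198 from the RefSeq start. That start lies 945 bases from the nearest start of a protein-coding GOT1 transcript in the GENCODE annotation. For IDH3A, PDHA1 and PDPR this distance is 0, 3 and 0 bases. CARE stood in 3.617% of all 35116 windows, and in 1 of the 35 windows of the listed genes, that of GOT1. The 10-letter palindrome of NRF1 stood in 1.239% of all windows and the extended site of the estrogen-related receptors (TNAAGGTCA) in 0.951%, and neither had a match in the 35 windows. Both strands were searched. GPT, OGDH and PDP1 have no window in the table. A match describes letters only.

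In WT the levels per length ran from GLUD1 at 243 ± 15.2 RPKM (mean ± SD, n = 4; RPKM is CPM divided by exonic length in kilobases) to PDP1 at 0.471 ± 0.0443. GLUD1, the mitochondrial glutamate dehydrogenase, was followed by IDH1, the cytosolic NADP-linked isocitrate dehydrogenase, at 125 ± 3.97, and each of these stood clear of the next gene in all 4 libraries. MDH2 at 74.8 ± 3.84, GOT2 at 71.5 ± 1.76 and GOT1 at 68.9 ± 3.80 overlapped with their neighbours in that order. IDH2 (61.6 ± 2.76), CS (55.0 ± 2.43), IDH3B (50.2 ± 2.63) and FH (41.4 ± 2.20) came next, of which CS, the citrate synthase, and IDH3B overlapped. A middle band from DLST at 24.7 ± 1.22 RPKM to IDH3G at 11.9 ± 0.686 held SUCLG2, MDH1, PDHA1, OGDH, PDHB, DLAT, PDHX and SUCLG1, with most neighbours overlapping. SUCLA2 stood at 7.13 ± 0.0838 and NNT, PDPR and IDH3A at 5.84 ± 0.171, 5.60 ± 0.152 and 5.43 ± 0.182, the last 3 overlapping in order.

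The 3 subunits of the NAD-linked isocitrate dehydrogenase therefore differed in level per length, IDH3B first, IDH3G next and the catalytic subunit IDH3A lowest. The order of IDH3G and IDH3A rests on their exonic lengths, 2717 and 6832 bases. In CPM, which is not divided by length, IDH3A averaged 37.1 in WT and IDH3G 32.3. At the bottom were PDP2 (3.34 ± 0.387), ME2 (3.15 ± 0.148), GPT (2.55 ± 0.215), GLS2 (1.24 ± 0.117) and OGDHL (1.08 ± 0.0832). PDP1 had 38 to 123 reads per library over all groups, which limits what can be said of it. ME3, the NADP-linked mitochondrial malic enzyme, had 0 reads in WT and at most 3 in any library, so it was not tested and 29 of the 30 genes were.

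**Figure D1:**
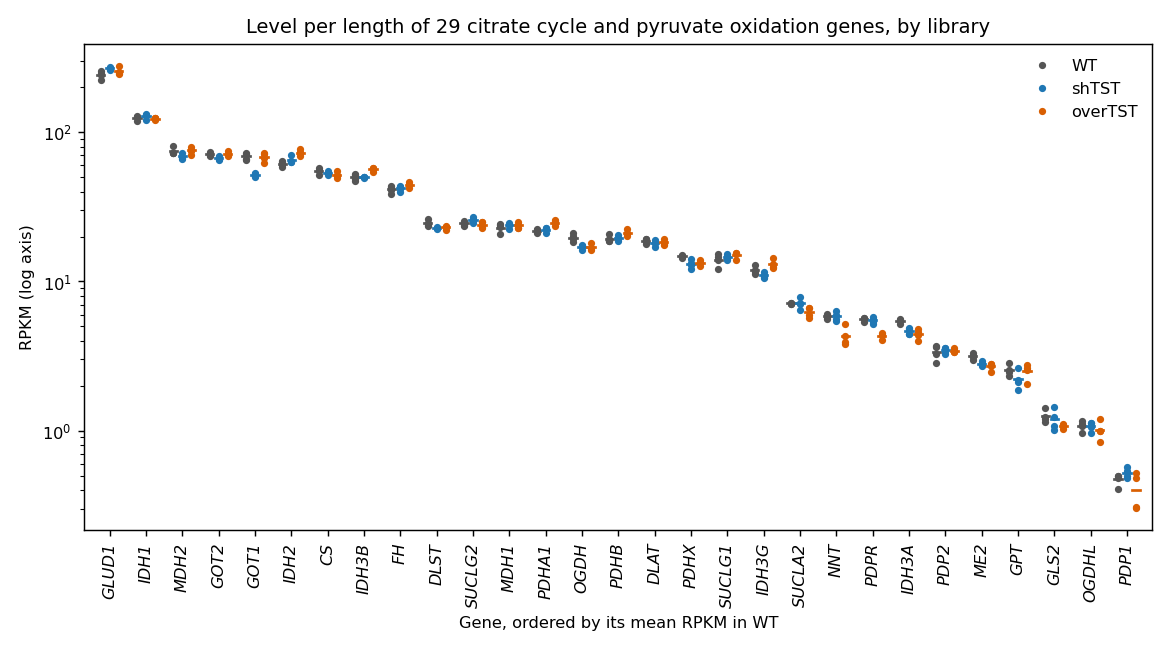
RPKM (log axis) of the 29 tested genes, ordered by their mean in WT, with 1 point per library and a line at each group mean (WT grey, shTST blue, overTST orange). The order runs from GLUD1 at 243 RPKM to PDP1 at 0.471 in WT, and differences between groups are small against differences between genes, with GOT1 in shTST and NNT and PDPR in overTST visibly lower.

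The first comparison asked which of these genes changed when TST was silenced. Of the 29 tested, 6 passed an edgeR adjusted p of 0.05 with shTST, 1 higher and 5 lower, which is 20.7%. Over all 14584 genes tested 16.1% passed, 6.69% higher and 9.4% lower, so the share of the listed genes was near the background. Their median log2 change was -0.01, against 0.00 over all genes. The 5 lower genes were GOT1, IDH3A, OGDH, PDHX and ME2, and the higher gene was GLUD1.

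GOT1, the cytosolic aspartate aminotransferase of the malate-aspartate shuttle (ENSG00000120053, chr10:99396870-99430624, minus strand, GRCh38), changed most. It measured 158, 176, 160.4 and 174 CPM in WT, against 129, 124, 121 and 128 in shTST. The highest shTST library stood well under the lowest WT library, while overTST, at 151, 162, 177 and 174, covered the WT range. The log2 change with shTST was -0.41 (SE 0.0455, edgeR adjusted p = 5.01e-06), or 0.752 times the WT level. Its mitochondrial counterpart GOT2 had a log2 change of -0.09 (SE 0.0409, edgeR adjusted p = 0.127).

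IDH3A, the catalytic subunit of the isocitrate dehydrogenase of the cycle (ENSG00000166411, chr15:78131498-78171949, plus strand), measured 37.4, 37.6, 35.3 and 38.1 CPM in WT and 32.9, 33.1, 30.3 and 30.4 in shTST. All 4 shTST libraries were below the 4 WT libraries, with a log2 change of -0.23 (SE 0.0548, edgeR adjusted p = 0.00656). The other subunits of that enzyme did not pass, IDH3B at -0.00 (SE 0.0441) and IDH3G at -0.11 (SE 0.0581). OGDH, which oxidizes alpha-ketoglutarate at the next step (ENSG00000105953, chr7:44606572-44709066, plus strand), measured 96.0, 109, 99.6 and 105 CPM in WT and 84.4, 90.1, 89.5 and 91.5 in shTST. The groups did not overlap, and the log2 change was -0.21 (SE 0.0479, edgeR adjusted p = 0.00516). DLST, the core of the same complex, was at -0.11 (SE 0.0441, edgeR adjusted p = 0.0914).

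PDHX, the protein that docks lipoamide dehydrogenase onto the pyruvate dehydrogenase core (ENSG00000110435, chr11:34915829-35020591, plus strand), measured 56.4, 55.6, 54.3 and 56.1 CPM in WT and 53.0, 50.3, 45.4 and 48.6 in shTST. The groups did not overlap. Its log2 change was -0.17 (SE 0.0516, edgeR adjusted p = 0.0236), and the adjusted p was 0.0959 without shTST replicate 3, 0.0767 without shTST replicate 4, 0.0502 without WT replicate 1 and 0.0667 without WT replicate 4. The other core genes PDHA1, PDHB and DLAT lay between -0.05 and 0.02. ME2, the NAD-linked mitochondrial malic enzyme (ENSG00000082212, chr18:50879049-50954257, plus strand), measured 30.1, 29.1, 27.8 and 31.0 CPM in WT and 25.3, 27.4, 26.6 and 25.6 in shTST, again without overlap. Its log2 change of -0.17 (SE 0.0579, edgeR adjusted p = 0.0478) was only just past the threshold. Over the alternatives without the replicate block, the adjusted p ran from 0.0317 to 0.166.

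GLUD1, which releases ammonia from glutamate to give alpha-ketoglutarate (ENSG00000148672, chr10:87050486-87094866, minus strand), was the gene that rose with shTST. It measured 910.3, 783, 874 and 850.3 CPM in WT and 950.5, 924, 962 and 937 in shTST, so the lowest shTST library lay just above the highest WT library. The log2 change was 0.14 (SE 0.0487, edgeR adjusted p = 0.0469), and over the alternatives without the replicate block the adjusted p ran from 0.0139 to 0.148. It was 0.148 without WT replicate 2, the lowest library. Leaving out any 1 of the shTST libraries or WT replicate 4 also took it above 0.05. The 23 genes that did not pass had log2 changes from -0.21 to 0.14 with SE of 0.0409 to 0.137. GPT, an alanine aminotransferase with few reads, was at -0.21 (SE 0.108) and MDH2, the malate dehydrogenase of the cycle, at -0.12 (SE 0.0459, edgeR adjusted p = 0.0815).

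The second comparison asked the same with TST overexpressed. Of the 29 genes, 10 passed with overTST, 3 higher and 7 lower, which is 34.5%. Over all 14421 genes tested 33.9% passed, 15.7% higher and 18.2% lower, so the listed genes changed about as often as any others. Their median log2 change was -0.03, against 0.00 over all genes. The split between directions moved with scaling, from 3 higher and 7 lower under TMM to 5 higher and 5 lower under upper-quartile scaling.

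Changes in overTST followed exonic length, which bears on each value below. Across the genes tested, the rank correlation of the log2 change with exonic length was -0.404 in overTST and -0.0900 in shTST, and genes up to 2000 bases had a median of 0.19 in overTST against -0.12 for those over 6000. Over the 29 listed genes it was -0.598 in overTST and -0.00690 in shTST. These correlations are across genes, which share libraries and are not independent. The listed genes are 2142 to 10385 exonic bases long. A fit with each library's trend against length over all genes removed is therefore given beside the genes that passed, as the length-corrected change. In overTST it brought the correlation over all genes to -0.00599, but over the listed genes only to -0.220. The length-corrected values of these genes are therefore not free of length. The correction left 9 genes past the threshold, 3 higher and 6 lower, 8 of them shared with the 10, where 28.5% of all genes passed. With shTST it left 5, all among the 6, where 17.9% of all genes passed, and the gene that dropped out was ME2 (-0.15, edgeR adjusted p = 0.0757).

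NNT, the inner-membrane transhydrogenase that makes NADPH from NADH (ENSG00000112992, chr5:43602692-43707405, plus strand, 8245 exonic bases), changed most with overTST. It measured 49.9, 46.4, 48.4 and 47.9 CPM in WT and 42.4, 31.3, 35.6 and 32.2 in overTST, and shTST, at 52.2, 48.8, 45.1 and 46.1, covered the WT range. All overTST libraries were below all others, and they spread more widely than the WT libraries. The log2 change was -0.44 (SE 0.0741, edgeR adjusted p = 7.04e-05), or 0.737 times WT, and -0.33 after the length correction (edgeR adjusted p = 0.000771).

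PDPR, the regulatory subunit of pyruvate dehydrogenase phosphatase (ENSG00000090857, chr16:70113626-70162537, plus strand, 10385 exonic bases), was the longest listed gene. It measured 58.4, 59.2, 55.8 and 59.1 CPM in WT, 55.9, 58.5, 54.1 and 60.2 in shTST, and 45.5, 46.6, 45.1 and 41.9 in overTST. The overTST libraries lay clear of the other 8, with a log2 change of -0.38 (SE 0.0547, edgeR adjusted p = 1.34e-05) and -0.22 after the length correction (edgeR adjusted p = 0.00211). A pseudogene copy, PDPR2P, had 15 to 73 reads per library, and 19.6% of the exonic length of PDPR is shared with a gene on the other strand. The catalytic subunits did not pass, PDP2 at 0.05 (SE 0.0749) and PDP1 at -0.22 (SE 0.179).

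IDH3A was lower in overTST too, at 32.7, 31.3, 29.8 and 27.2 CPM, all below WT, with a log2 change of -0.29 (SE 0.0645, edgeR adjusted p = 0.00105) and -0.21 length-corrected (edgeR adjusted p = 0.0104). The exons of ACSBG1, on the other strand, cover 38.2% of its exonic length but had 7 to 20 reads per library. OGDH measured 84.7, 94.0, 87.1 and 87.6 CPM in overTST, below every WT library, with -0.22 (SE 0.0530, edgeR adjusted p = 0.00267) and -0.17 length-corrected (edgeR adjusted p = 0.0124). ME2 measured 26.3, 26.3, 23.0 and 25.5 CPM in overTST, also below every WT library. Its change of -0.22 (SE 0.0668, edgeR adjusted p = 0.0116) fell to -0.09 with the length correction (edgeR adjusted p = 0.339), so that the call was lost.

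SUCLA2, the subunit that makes the succinyl-CoA ligase of the cycle ADP-forming (ENSG00000136143, chr13:47936491-48001354, minus strand), measured 27.9, 28.4, 27.7 and 28.3 CPM in WT and 26.0, 23.6, 26.1 and 22.3 in overTST, without overlap. Its log2 change was -0.20 (SE 0.0667, edgeR adjusted p = 0.0253; -0.21 length-corrected), and the adjusted p was 0.0716, 0.106 and 0.0644 without overTST replicate 2, overTST replicate 4 and WT replicate 4. PDHX stood at 51.1, 47.8, 52.7 and 49.8 CPM in overTST, all below WT, with -0.14 (SE 0.0536, edgeR adjusted p = 0.0422; -0.17 length-corrected). That call was lost without overTST replicate 2 or 4 and without WT replicate 1, 2 or 4, where the adjusted p ran from 0.0568 to 0.127.

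Among the genes that rose, IDH2, the mitochondrial NADP-linked isocitrate dehydrogenase (ENSG00000182054, chr15:90083045-90102504, minus strand), measured 169, 164, 181 and 179 CPM in WT and 195, 208, 203 and 217 in overTST, without overlap. The log2 change was 0.25 (SE 0.0497, edgeR adjusted p = 0.000465), and 0.17 length-corrected (edgeR adjusted p = 0.00726). PDHA1, the alpha subunit of pyruvate dehydrogenase that carries the inhibitory phosphorylation sites (ENSG00000131828, chrX:19343893-19361705, plus strand), measured 98.5, 95.1, 99.0 and 101 CPM in WT and 106, 114, 116 and 111 in overTST, again apart. Its change of 0.18 (SE 0.0489, edgeR adjusted p = 0.00585) was 0.19 with the length correction. MAP3K15, on the other strand, shares 21.3% of its exonic length and had 50 to 147 reads per library.

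IDH3B (ENSG00000101365, chr20:2658395-2664219, minus strand) measured 134, 122, 135 and 124 CPM in WT and 139, 148, 148 and 145 in overTST. The groups did not overlap and the change was 0.17 (SE 0.0499, edgeR adjusted p = 0.00932), but it was 0.07 length-corrected (edgeR adjusted p = 0.24). PDHB, the beta subunit that pairs with PDHA1, moved the other way across the threshold, from 0.13 (SE 0.0528, edgeR adjusted p = 0.0601) to 0.15 (edgeR adjusted p = 0.0264). The 19 genes that did not pass had log2 changes from -0.22 to 0.14. Among them were citrate synthase CS at -0.08 (SE 0.0499), fumarase FH at 0.10 (SE 0.0525), MDH2 at 0.01 (SE 0.0501), the cytosolic MDH1 at 0.05 (SE 0.0552) and GOT1 at -0.01 (SE 0.0546).

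**Figure D2:**
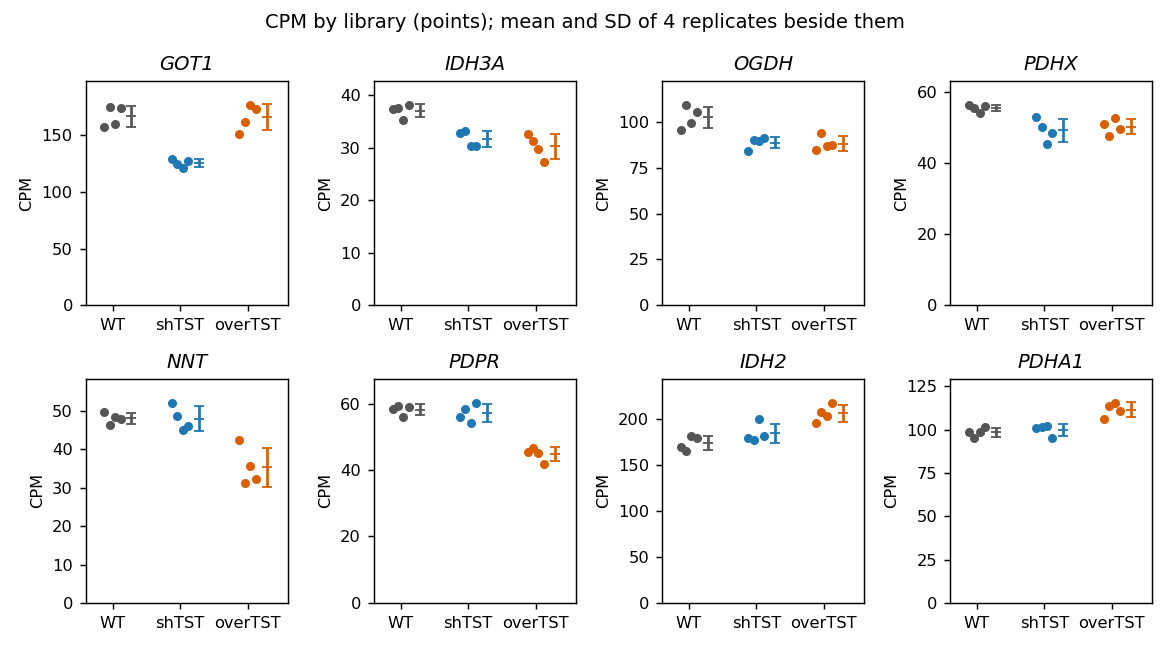
CPM of 8 listed genes in each library (points; WT grey, shTST blue, overTST orange), with the mean and SD of the 4 replicates as a bar beside each group and every axis starting at 0. GOT1 sits at 121 to 129 CPM in shTST, below the other groups, NNT and PDPR are lower in overTST, IDH3A, OGDH and PDHX are lower in both engineered lines, and IDH2 and PDHA1 are higher in overTST.

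Both comparisons share the 4 WT libraries, so their values are set side by side only. IDH3A, ME2, OGDH and PDHX passed in both, each lower, and the direct comparison of overTST with shTST gave log2 differences of -0.06 (SE 0.0614), -0.05 (SE 0.0623), -0.01 (SE 0.0499) and 0.03 (SE 0.0532) for them. No difference between the engineered lines was detected for these 4 genes, with edgeR adjusted p from 0.454 to 0.907. ME2 lost its call in both comparisons with WT after the length correction. The share of all genes that passed in both comparisons was not computed. Whether the listed genes passed in both more often than other genes was therefore not tested.

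**Figure D3:**
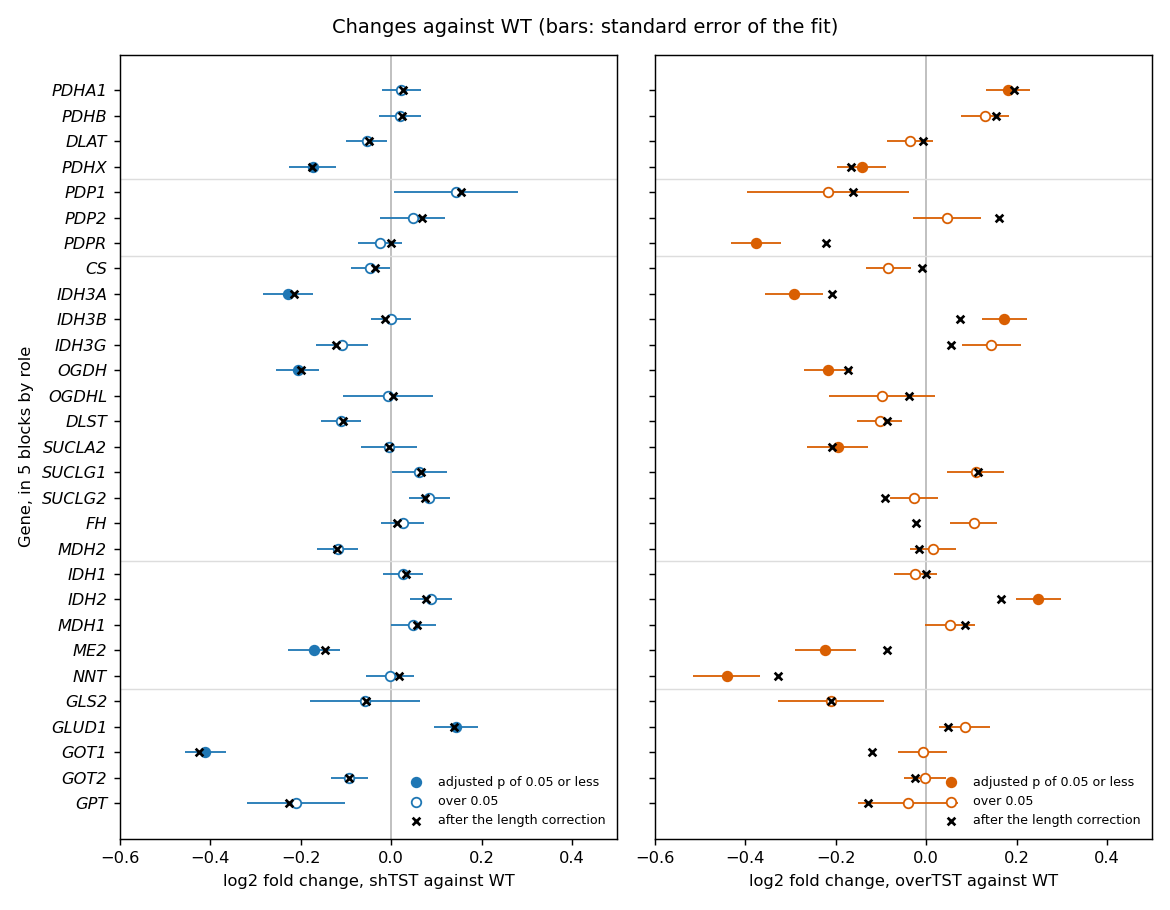
Log2 fold changes against WT with the standard error of the fit for the 29 tested genes, in 5 blocks by role from pyruvate dehydrogenase (top) to transaminases (bottom), for shTST (left) and overTST (right). Filled points had an adjusted p of 0.05 or less, open points did not, and crosses give the length-corrected values, which nearly coincide with the points in shTST and move from -0.38 to -0.22 for PDPR in overTST.

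The direct comparison asked which genes differed between the engineered lines. Of 29 genes, 9 passed, 6 higher and 3 lower in overTST, which is 31.0%, where 33.0% of the 14883 genes tested passed, 16.1% higher and 16.9% lower. The median over the listed genes was 0.00, and over all genes -0.00. After the length correction 8 passed, 4 in each direction, 6 of them shared with the 9, where 27.8% of all genes passed. The rank correlation of the log2 difference with exonic length over the listed genes was -0.648 before the correction and still -0.332 after it.

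GOT1 differed by 0.40 (SE 0.0511, edgeR adjusted p = 3.11e-06; 0.30 length-corrected), NNT by -0.44 (SE 0.0719, edgeR adjusted p = 6.11e-05; -0.34) and PDPR by -0.35 (SE 0.0518, edgeR adjusted p = 1.87e-05; -0.22), each with all overTST libraries on one side of all shTST libraries. PDHA1 was higher by 0.16 (SE 0.0451, edgeR adjusted p = 0.00833; 0.17 length-corrected), its shTST libraries standing at 101, 102, 102 and 95.02 CPM. IDH3G, a regulatory subunit of the isocitrate dehydrogenase (ENSG00000067829, chrX:153785766-153794523, minus strand), had passed in neither comparison with WT. It measured 31.6, 32.3, 34.8 and 30.3 CPM in WT, 30.1, 31.6, 28.7 and 29.3 in shTST and 33.6, 35.8, 39.0 and 34.0 in overTST, so that the engineered lines stood apart with WT overlapping both. The difference was 0.25 (SE 0.0617, edgeR adjusted p = 0.00252; 0.18 length-corrected), and 10.2% of its exonic length is shared with SSR4 on the other strand, which had 2367 to 3531 reads per library.

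IDH3B (129.5, 129, 129 and 127 CPM in shTST) was higher in overTST by 0.17 (SE 0.0447, edgeR adjusted p = 0.00394) and IDH2 (179, 177, 199.5 and 181 CPM in shTST) by 0.16 (SE 0.0485, edgeR adjusted p = 0.0131). Both lost the call after the length correction, at 0.09 in each case (edgeR adjusted p = 0.124 and 0.139). MDH2 was higher by 0.13 (SE 0.0478, edgeR adjusted p = 0.0331) with overlapping groups, and 0.11 length-corrected (edgeR adjusted p = 0.0832). SUCLA2 was lower by -0.19 (SE 0.0671, edgeR adjusted p = 0.0306), although its shTST libraries, at 30.8, 27.6, 25.2 and 28.4 CPM, overlapped with overTST. The calls of MDH2 and SUCLA2 were lost when single libraries were left out, with adjusted p up to 0.12 and 0.131. Past the threshold after the length correction only were SUCLG2, the GDP-forming counterpart of SUCLA2, at -0.17 (edgeR adjusted p = 0.0118) and PDHB at 0.13 (edgeR adjusted p = 0.0462).

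By role, the cycle genes held 2 of 12 called with shTST (IDH3A, OGDH) and 4 of 12 with overTST (those and SUCLA2 lower, IDH3B higher). The pyruvate dehydrogenase core held 1 of 4 and 2 of 4, and its phosphatase 0 of 3 and 1 of 3. Of the NADP-linked and malate genes, 1 of 5 tested passed with shTST and 3 of 5 with overTST. In the glutamate and transaminase group, 2 of 5 passed with shTST (GOT1 lower, GLUD1 higher), while with overTST its log2 changes ran from -0.21 to 0.09. Over all genes tested, 16.1% passed with shTST and 33.9% with overTST. These groups are too small for their shares to be told apart from that background.

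Ratios of isoenzymes within a library do not depend on library scaling, though they do depend on the length trend, and are given as descriptions, with no test. GOT1 to GOT2 (cytosol to mitochondrion) was 0.962 per length in WT and 0.773 in shTST, with all shTST libraries below all WT libraries, and 0.958 in overTST. IDH1 to IDH2 (cytosol to mitochondrion) was 2.04 in WT and 1.69 in overTST, again apart, and 1.95 in shTST. Its log2 difference in overTST, -0.27, was -0.16 after the length correction, since the genes of a pair can differ in length. SUCLA2 to SUCLG2 (ADP-forming to GDP-forming) was 0.292 in WT and 0.259 in overTST, apart, and OGDH to OGDHL was 18.3 in WT and 16.0 in shTST, apart. MDH1 to MDH2 (0.307, 0.345 and 0.315 in WT, shTST and overTST) and PDP1 to PDP2 (0.141, 0.151 and 0.113) overlapped between WT and each engineered line. ME2 to ME3 could not be formed, since ME3 had no reads in WT.

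**Figure D4:**
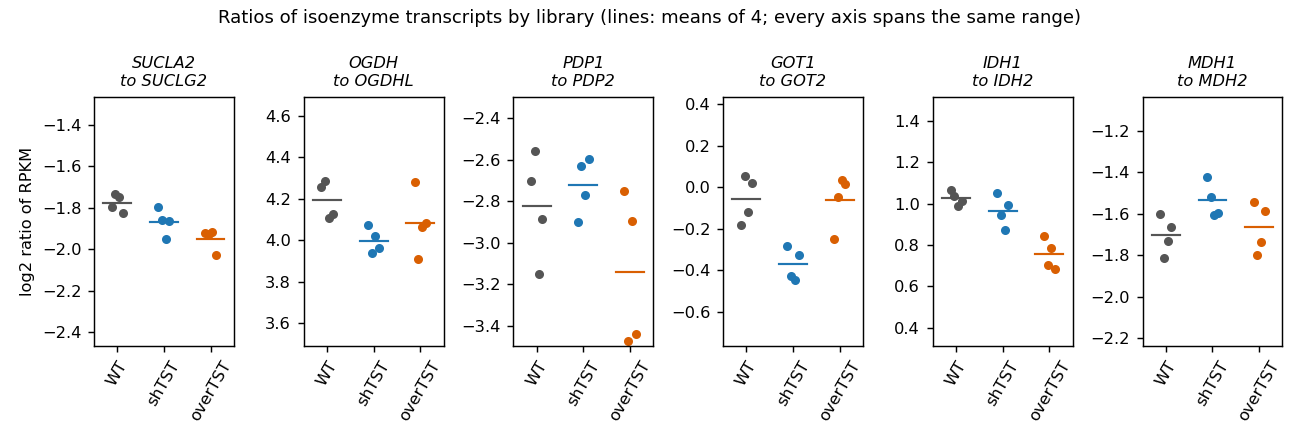
Log2 ratio of RPKM for 6 isoenzyme pairs in each library (points; WT grey, shTST blue, overTST orange), with a line at the mean of 4 and the same span on every axis. GOT1 to GOT2 is lower in shTST than in WT (0.773 against 0.962 as ratios), and IDH1 to IDH2 is lower in overTST (1.69 against 2.04).

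A second list held 30 other genes of the same pathways, among them the remaining cycle enzymes, pyruvate dehydrogenase kinases, the pyruvate carrier, anaplerotic enzymes and mitochondrial carriers. It was chosen with earlier results of these data known. Its shares are therefore set beside those of all genes as descriptions only, and an excess over that background was not tested. PDK4, ME1 and LDHB had too few reads, and 27 were tested. With shTST 8 passed (29.6%, beside 16.1% of all genes), each lower, and the median was -0.04. The largest were PDK3, a kinase that switches pyruvate dehydrogenase off, at -0.31 (SE 0.0958, edgeR adjusted p = 0.0269), PC, the pyruvate carboxylase that feeds oxaloacetate into the cycle, at -0.29 (SE 0.0462, edgeR adjusted p = 0.000215), and PCK2, which turns mitochondrial oxaloacetate into phosphoenolpyruvate, at -0.27 (SE 0.0444, edgeR adjusted p = 0.00033). PC measured 98.5, 106, 112 and 106 CPM in WT and 83.1, 86.3, 88.5 and 87.0 in shTST, without overlap.

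With overTST 10 of the 27 passed, 5 in each direction (37.0%, beside 33.9% of all genes). After the length correction 7 passed, 3 higher and 4 lower, 5 of them shared with the 10, beside 28.5% of all genes. Among the 10 that passed before the correction were SLC25A13, the aspartate-glutamate carrier of liver, at -0.38 (SE 0.0527, edgeR adjusted p = 8.82e-06, and -0.40 length-corrected), and CSKMT, a methyltransferase of citrate synthase, at 0.30 (SE 0.111, edgeR adjusted p = 0.0396). CSKMT lost the call after the length correction, at 0.24 (edgeR adjusted p = 0.107). Between the engineered lines 13 passed, 7 higher and 6 lower in overTST (48.1%, beside 33.0% of all genes). After the length correction 8 of the 27 did, where 27.8% of all genes passed. MPC1, a subunit of the mitochondrial pyruvate carrier, differed by 0.44 (SE 0.0536, edgeR adjusted p = 1.87e-06; 0.30 length-corrected), PDK3 by 0.27 (SE 0.0962, edgeR adjusted p = 0.034) and SLC25A12, another aspartate-glutamate carrier, by -0.26 (SE 0.0990, edgeR adjusted p = 0.0439). PDK3 and SLC25A12 lost the call after the length correction, at 0.19 (edgeR adjusted p = 0.145) and -0.23 (edgeR adjusted p = 0.0852). MPC1 measured 126, 125, 141 and 143 CPM in WT, 124, 112, 127 and 117 in shTST and 155, 159.5, 171 and 167 in overTST. Before the length correction its overTST libraries lay above all others. After the correction overTST replicate 2 stood at 7.18 log2 CPM, under WT replicate 4 at 7.21.

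Whether reads were counted by strand is not given in the sources used here, so reads from genes that overlap on opposite strands cannot be told apart. This touches GLS2, the liver-type glutaminase, most, since 77.1% of its exonic length is shared with SPRYD4, which had 608 to 1183 reads per library against 101 to 226 for GLS2. GLUD1 shares 13.2% with SHLD2 and has pseudogene copies with at most 50 reads. In bulk libraries, fewer cells with a transcript and fewer transcripts per cell cannot be told apart.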

How the data were processed

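Total RNA of 12 HepG2 cultures, described as independent replicates (4 WT, 4 shTST, 4 overTST), was sequenced by a commercial provider. The authors deposited whole-number read counts per Ensembl gene for each library, with exon coordinates and exonic length, not normalized. The submitters' processing notes name Trimmomatic 0.36, STAR 2.5.2b, featureCounts, Subread 1.5.2 and GRCh38, with no role stated, and the strand setting is not given in the sources used here. Depth was 22911380 to 45120508 reads per library.

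Groups came from the sample titles, and glycine dose and time from the study's methods. The 30 genes were matched by Ensembl identifier. The genes, the second list, the motifs and the tests were chosen with earlier results of these data known. All genes were fitted together with edgeR 4.0.16 (R 4.3.3): filterByExpr, TMM, and the quasi-likelihood test with Benjamini-Hochberg adjustment over all genes tested, at 0.05. Comparisons with WT used their own 8 libraries, and overTST against shTST used all 12. SE is the log2 change divided by the square root of F. CPM and RPKM use TMM over all 12 libraries. The length correction removed from each library a lowess trend (span 0.3, prior count 2) of log2 CPM against exonic length, as an offset. The fits were tested on simulated data. Alternatives were DESeq2 1.42.0, limma-voom (limma 3.58.1), RLE and upper-quartile scaling, no filter, over 1 CPM in at least 4 libraries, other sets of libraries in the fit, exclusion of mitochondrially encoded genes, a replicate block, the length correction with and without that block, and each library left out in turn. Genes were named by a fixed rule: per-library values for genes past the threshold (at most 5 per direction and comparison), genes that crossed the threshold with the length correction, TST, and the 3 largest of the second list per comparison, of which 1 gene is not reported here. Per-library values of SUCLA2, PC and MPC1 were added after they had been seen. Promoters are from RefSeq (GRCh38.p14), with 35 windows for 27 of the 30 genes.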

Additional observations from a re-analysis of the deposited data

Results flagged for a closer look

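In 3 of 87 groups of 4 libraries, 1 library of a listed gene stood far from the other 3 by Dixon's test, and chance gives about 1 in 20. MDH2 in WT replicate 3 was at 293 CPM, against 265 to 266 in the others. IDH1 in overTST replicate 2 was at 568 CPM, against 587 to 588 in the others. PDHA1 in shTST replicate 4 was at 95.02 CPM, against 101 to 102 in the others. Their causes were not tested.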

How the results depend on the processing

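Of 475 values for the 25 calls of listed genes under the alternatives, 412 stayed past the threshold, 63 did not and 0 reversed. Of 1178 values for the 62 results not called, 21 crossed the threshold. The count of listed genes changed with shTST ran from 3 to 6 when single libraries were left out, with 3 without WT replicate 4 and 3 without shTST replicate 4. With overTST it ran from 8 to 12, and between the engineered lines from 6 to 12. Under the same omissions the counts over all genes ran from 1513 to 2336, 3979 to 5263 and 3986 to 5265 in that order. Without WT replicate 4 or shTST replicate 4, where 3 listed genes passed with shTST, 1740 and 1751 genes passed over all, beside 2346. In the second list, the count with shTST was 5 under upper-quartile scaling and 4 to 9 with a library left out, with 5 without WT replicate 4 or shTST replicate 2 and 4 without shTST replicate 1 or 4. Between the engineered lines it was 8 with the length correction, with or without the replicate block, and 6 to 12 with a library left out, with 8 without shTST replicate 4 and 6 without overTST replicate 4. The length correction without the block gave 4142 over all genes there, beside 4907. The TST change in overTST lost its call at 0.0965 with the length correction (edgeR adjusted p = 0.201) and 0.0944 with the block added (0.159), beside 0.24 (0.00384). SDHC changed sign with the length correction, to 0.14 in overTST against WT (edgeR adjusted p = 0.0406) and 0.0343 in overTST against shTST (edgeR adjusted p = 0.637). With the block added it stood at 0.1429 and 0.0338. Without the correction and with single libraries left out, it ran from -0.0754 to -0.0277 and from -0.1565 to -0.1146. On the log2 scale, the ratio of SUCLA2 to SUCLG2 in overTST minus WT was -0.1199 and that of IDH1 to IDH2 -0.1638 after the length correction. Over all genes, upper-quartile scaling gave 1284 higher and 1151 lower with shTST, beside 975 and 1371, and 2700 and 2292 with overTST, beside 2265 and 2628, and the count with shTST was 1513 without shTST replicate 1, beside 2346. The causes of these moves were not tested.

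Replicate numbers paired the libraries weakly, if at all. Correlations of deviations between libraries of the same number ran from -0.05 to 0.08, and of different numbers from -0.11 to 0.08. Across the comparisons, 5 of 12 cases had the highest correlation at the library's own number, with overTST libraries counted in each of their comparisons. The replicate block gave 7, 11 and 9 listed genes and 10, 11 and 14 of the second list, for shTST against WT, overTST against WT and overTST against shTST. Over all genes it gave 2980, 5166 and 5232 in that order, beside 2346, 4893 and 4907 without it. Depth limits PDP1, GLS2, GPT and OGDHL, whose standard errors were larger than those of the other listed genes.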
